A study of Mus musculus with 16 samples.

Results

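Translation initiation and elongation factors are the proteins that load ribosomes onto messenger RNA, find the start codon and move the ribosome along. Their messenger RNA was measured through the day and after ionising radiation in the submandibular gland of the mouse, which makes secreted saliva proteins in bulk. They were taken as gene symbols starting with Eif1 to Eif6 or with Eef1 or Eef2. The sex-linked genes Eif2s3y, Eif2s3x and Eif1ax, the Eif2ak kinases and Eef2k were left out by name. Of 85 matching symbols, 77 were eligible, and the 61 that reached at least 1 FPKM (a fragment count corrected for transcript length and library size) in at least 2 of the 10 RNA libraries are described here, out of 15161 genes that passed the same filter.

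The RNA libraries form 5 groups of 2, all from wild-type (WT) mice aged 6 to 8 weeks. Untreated glands were collected at zeitgeber times ZT3, ZT9 and ZT15, counted in hours from lights on, and other glands 6 h or 24 h after irradiation with 5 Gy. Chromatin of untreated glands was profiled by CUT&Tag, which cuts DNA beside an antibody-marked protein. It gave 6 summit lists, 2 per target, for Bmal1, Nr1d1 and Dbp, which the labels write as genotypes. The labels give neither the clock hour of irradiation nor the animal behind a replicate, so p-values measure the spread between these samples. At ZT3 and ZT9 that spread may be technical. At ZT15, 6 h and 24 h the 2 libraries of a group differed in sex-linked transcripts. They did not come from the same animal, and the shared spread includes that difference.

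Initiation starts when eIF2 brings the initiator tRNA to the small ribosomal subunit, with eIF3, eIF1 and eIF5 bound, while the eIF4 proteins recognise the cap of the messenger RNA and unwind its leader. eIF2B recharges eIF2, and phosphorylated eIF2 blocks that step when cells are stressed. 4E-BP proteins hold back the cap-binding protein eIF4E, and after initiation eEF1A delivers aminoacyl-tRNA and eEF2 moves the ribosome to the next codon.

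Total FPKM ran from 791786 to 1174465 per library, and 19195 to 21781 genes were above 0. The depth in reads is unknown, and depth relative to ZT3 replicate 1, read from the steps between low FPKM values, ranged from 0.693 to 1.57. Y-linked transcripts were at 0 in 5 of the 10 libraries, among them both at ZT9, and were high in both at ZT3. Xist, a transcript of female cells, was at 24.9 to 58.3 FPKM in those 5 and at most 0.0688 in the rest. By these transcripts both ZT3 libraries were male, both ZT9 libraries female, and each other group held 1 of each. The difference between ZT9 and ZT3 therefore cannot be told apart from sex, and 6 h against ZT9 and 24 h against ZT3 are unbalanced. The summed FPKM of 8 genes of the granular convoluted tubule, a duct segment of the gland, was 60818 and 89292 at ZT3. It followed the Y-linked transcripts: it was 733 to 2894 in the 5 libraries without them and at least 14896 in every library with them. The 2 libraries of a group differed in this way at 6 h (14896 and 1504) and at 24 h (19562 and 969). The 8 acinar markers summed to between 24189 and 110723. The lowest acinar sum was that of 24 h replicate 1, where the marker Prol1 was at 0 FPKM. Prol1 was between 22178 and 56742 in the other libraries. The parotid marker Amy1 was at 26.4 and 4167 FPKM (ZT3), 12.8 and 1108 (ZT9) and 111 and 19203 (ZT15). After irradiation it was at 6939 and 9935 (6 h) and 4585 and 343 (24 h). The 3 parotid markers, Amy1 among them, summed to between 19282 and 53224. T cell and B cell transcripts were raised in ZT3 replicate 2, ZT15 replicate 2 and replicate 2 at 6 h; the 4 B cell markers summed to 54.9, 211 and 12.6 FPKM there and to no more than 3.23 elsewhere. In whole glands, fewer cells of a type and less RNA per cell cannot be told apart. The deposited files came in 2 gene orders, 1 for the ZT3 and irradiated libraries and 1 for the ZT9 and ZT15 libraries, so a difference in processing cannot be told apart from these control times.

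The factors were abundant. The median over the 61 of the mean FPKM was 42.9, against 7.59 over all genes tested; 17 factors had a mean of at least 100 FPKM, 35 lay between 10 and 100, and 9 lay under 10. For 39 of them the highest library was less than 2-fold above the lowest. Eef1a1, the main eEF1A gene, stood first with a mean of 2978 FPKM and made up 33.3% to 42.3% of the FPKM summed over the 61. Eef2 followed at 793, Eif4a2, an RNA helicase of the cap complex, at 441, Eef1b2, a subunit of the exchange factor that recharges eEF1A, at 360, and Eif5a, which helps ribosomes through stalling sequences, at 242.

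The set lacked Eif2s3x, Eif2s3y and Eif1ax, which passed the filter but were left out by name. It held every eligible gene of the eIF2 and eIF2B group (9), of eIF3 (14) and of the scanning and start codon group (7). It also held 12 of 13 eIF4 genes, 6 of 7 elongation genes, 2 of 3 4E-BP genes, 1 of 2 eIF5A genes, all 6 methyltransferases of eEF1A or eEF2, and 4 of 15 copies of these genes, most of them named as pseudogenes. The genes just outside the filter were Eif4ebp3, with a second-highest library of 0.948 FPKM, Eif5a2 at 0.732 and Eef1a2, the eEF1A gene of muscle and neurons, at 0.403. Just inside it were Eif3j2 at 2.16, Eif1-ps1 at 3.13, Eef1a1-ps1 at 3.37 and Eif4e3 at 4.39. Values of Eef1a1-ps1, Eif4a-ps4, Eef2-ps2 and Eif1-ps1, and of the near-identical pair Eif3j1 and Eif3j2, are uncertain because reads can be shared with the parent gene or the other copy.

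**Figure D1:**
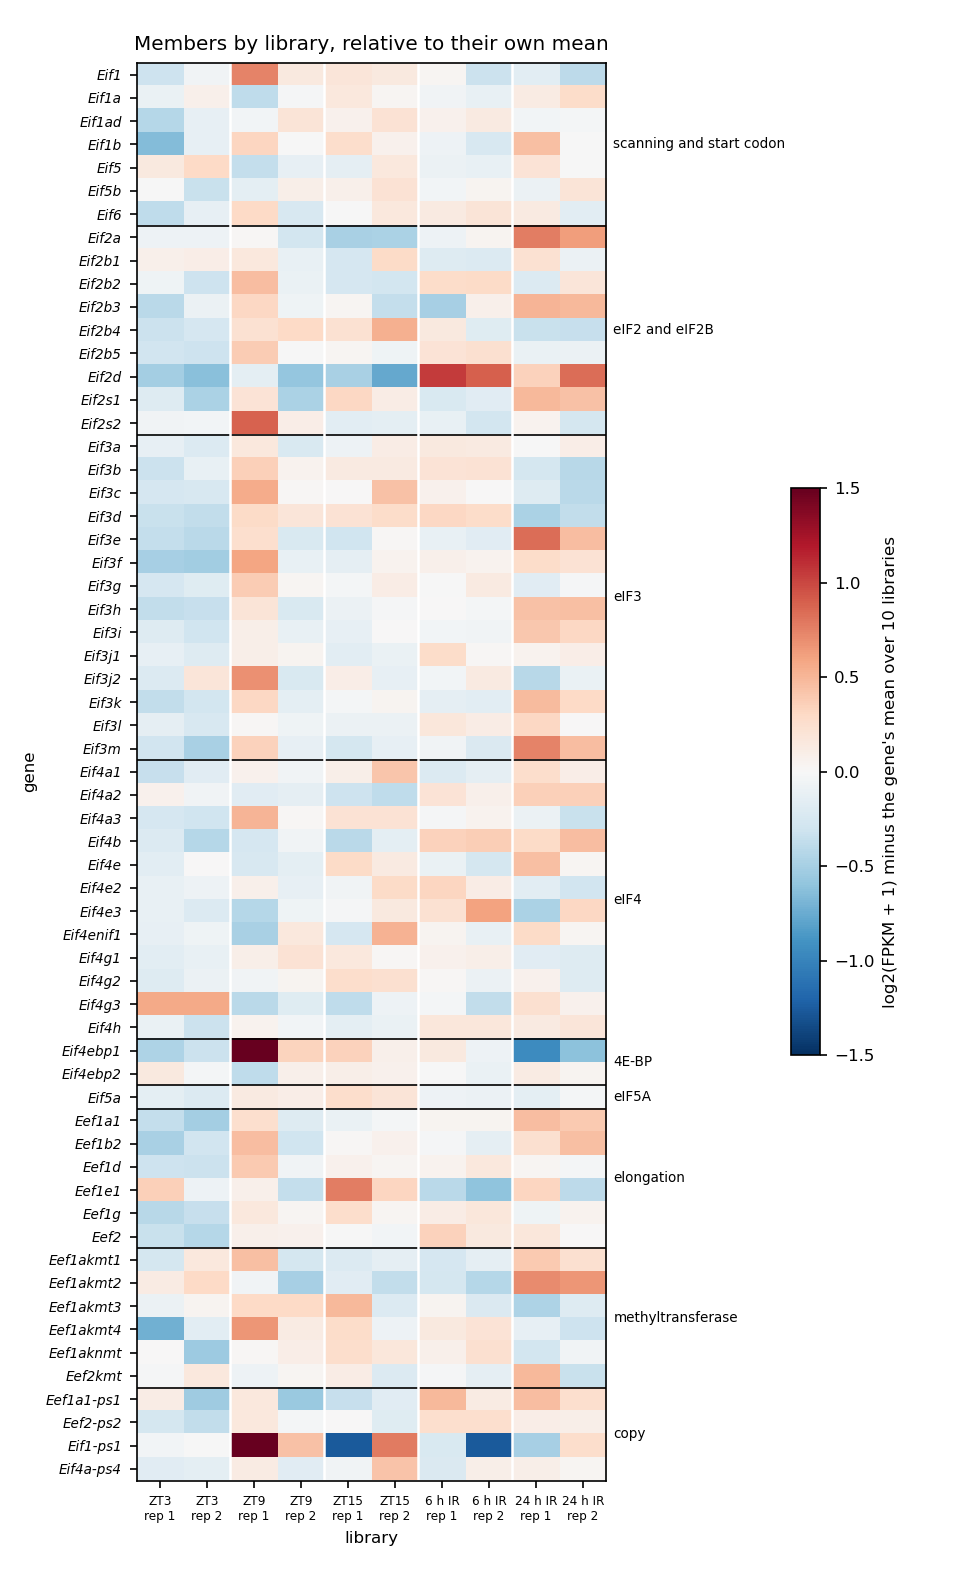
Each row is 1 of the 61 factors, grouped by role, and each column is 1 library; colour gives log2(FPKM + 1) minus the gene's own mean over the 10 libraries, with the colour scale limited to -1.5 and 1.5. Most eIF3 and elongation rows are blue in both ZT3 columns, Eif2d is red in all 4 irradiated columns, and the ZT9 replicate 1 column is redder than its partner.

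In the tests across all genes, 0 of the 61 factors passed an adjusted p of 0.05 at 6 h against ZT9, at 24 h against ZT3, at 24 h against 6 h or across the 3 control times (limma, Benjamini-Hochberg over all genes tested). The shares of all genes that passed were 0.514%, 0.495%, 0.0198% and 0.0198%. At an unadjusted p under 0.05 the counts of factors were 6, 22, 14 and 12 in the same order, beside 12.2%, 17.9%, 19.4% and 13.1% of all genes. The folds below are therefore values that missed the threshold in those fits unless a test that passed is named.

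Eif2d had the smallest p of the factors 6 h after irradiation. It encodes eIF2D, which can bring tRNA to the ribosome without eIF2 and helps recycle ribosomes, and it lies at chr1:131153172-131187659 (mm10, RefSeq GRCm38.p6). Its FPKM was 26.4 and 24.4 (ZT3), 34.4 and 25.2 (ZT9), 26.9 and 21.9 (ZT15), 80.2 and 71.9 (6 h), and 48.7 and 68.7 (24 h). All 4 irradiated libraries lay above all 6 control libraries. At 6 h it stood 1.34 higher than ZT9 on the log2(FPKM + 1) scale (SE 0.22, adjusted p = 0.0549), with means of 76.1 ± 5.84 and 29.8 ± 6.56 FPKM (SD, n = 2 each). At 24 h it stood 1.16 above ZT3 (SE 0.22, adjusted p = 0.0837). Set against ZT3 in place of ZT9, Eif2d rose at 6 h by 1.54 (adjusted p = 0.0310; 0.792% of all genes passed), and against the mean of the 3 control times by 1.5 (adjusted p = 0.0123; 1.02% passed).

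Eif2a, at chr3:58525821-58557501, encodes eIF2A, a separate initiation factor that is not a subunit of eIF2. Its FPKM was 39.8 and 39.7 (ZT3), 42.4 and 34.3 (ZT9), 29.7 and 29.9 (ZT15), 39.6 and 43.3 (6 h), and 72.3 and 65.3 (24 h). Both 24 h libraries lay above the other 8, and the 6 h libraries lay close to those of ZT3 and ZT9. The difference was 0.78 at 24 h against ZT3 (SE 0.15, adjusted p = 0.0832) and 0.72 against 6 h (SE 0.15, adjusted p = 0.119). Against ZT9 Eif2a rose by 0.83 (adjusted p = 0.0321; 5.11% of all genes passed), and against the mean of the 3 control times by 0.93 (adjusted p = 0.0151; 5.55% passed).

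The genes of eIF2 and eIF2B subunits had patterns of their own. Eif2s1, the subunit phosphorylated in the integrated stress response, was at 21.5 and 17.4 FPKM at ZT3 and at 35.0 and 33.8 at 24 h, 0.80 higher (SE 0.23, adjusted p = 0.159). Eif2s2, the beta subunit and the most abundant of this group, ranged from 38.8 to 50.4 FPKM in 9 libraries and reached 88.1 in ZT9 replicate 1. Its 6 h values, 43.5 and 38.8, lay below both ZT9 values (-0.69, SE 0.25, adjusted p = 0.355). Of the 5 eIF2B subunits, Eif2b3 was at 9.54 and 12.2 at ZT3 against 18.9 and 18.6 at 24 h (0.75, SE 0.25, adjusted p = 0.200). Eif2b4 was lowest in the ZT3 and 24 h libraries, between 13.3 and 14.2, and higher in the other 6, at up to 25.3.

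**Figure D2:**
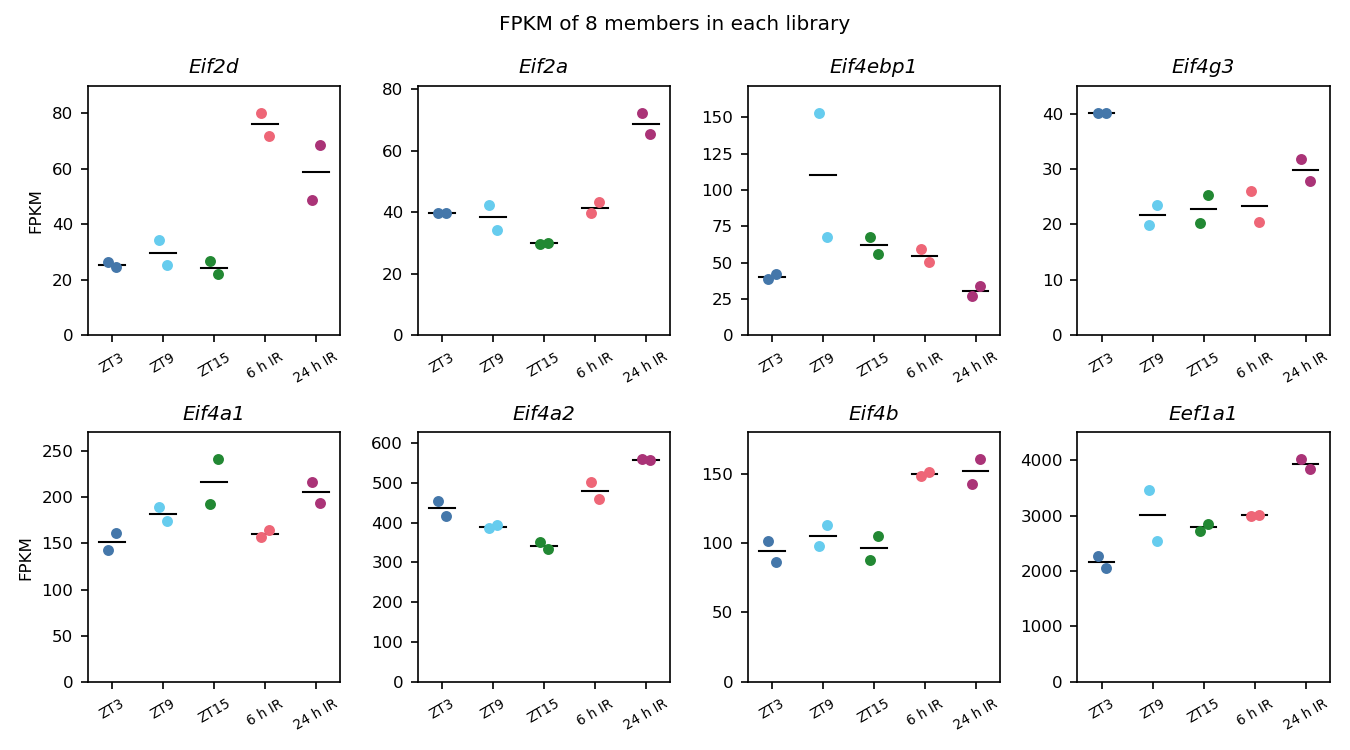
FPKM of 8 factors in each library (points) with the mean of the 2 libraries of a group (line); the axes start at 0. Eif2d is higher in the 4 irradiated libraries, Eif2a in the 24 h libraries and Eif4g3 at ZT3, while ZT9 replicate 1 stands apart for Eif4ebp1.

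Among the 14 eIF3 genes, some were high and others low in the same 24 h libraries. eIF3 is the scaffold that holds the small ribosomal subunit, the tRNA and the cap complex together. Eif3e was at 75.2 and 72.8 FPKM (ZT3), 115 and 82.0 (ZT9), 78.2 and 97.3 (ZT15), 89.4 and 85.5 (6 h), and 174 and 134 (24 h). Eif3m was at 85.3 and 74.3, 133 and 95.7, 86.7 and 96.1, 101 and 89.5, and 176 and 145 in the same order. For both genes the 24 h libraries were the highest of the 10.

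Against ZT3 the 24 h differences were 1.03 for Eif3e (SE 0.21, adjusted p = 0.0947), 1.00 for Eif3m (SE 0.20, adjusted p = 0.0923) and 0.80 for Eif3h (SE 0.16, adjusted p = 0.0931). Eif3f, Eif3i and Eif3k stood between 0.60 and 0.75 higher. Against the mean of the 3 control times Eif3e, Eif3m and Eif3h rose by 0.83, 0.77 and 0.59, with adjusted p of 0.0421, 0.0430 and 0.0476. With either ZT9 library left out of the fit, Eif3e, Eif3f, Eif3h, Eif3k, Eif3m and Eif2a passed against ZT3, the largest adjusted p being 0.0482; 1.56% of all genes passed in each of those fits, against 0.495% with all libraries.

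Eif3d, the subunit that can itself bind the cap, went the other way. It lies at chr15:77958998-77970824. Its FPKM was 36.8 and 35.9 (ZT3), 57.2 and 53 (ZT9), 54.7 and 56.9 (ZT15), 58.4 and 56.7 (6 h), and 33.3 and 35.9 (24 h). The ZT3 and 24 h libraries formed a low set and the other 6 a high one, with no overlap between the sets. At 24 h it was 0.72 below 6 h (SE 0.12, adjusted p = 0.118) and, with ZT9 in place of ZT3 as control, fell by 0.66 (adjusted p = 0.0346). Against the mean of the controls it fell by 0.47 (adjusted p = 0.0437), while against ZT3 the difference was -0.07 (95% interval -0.35 to 0.21).

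Eif3b, a core subunit with an RNA recognition motif, was at 65.0 and 65.1 FPKM at 6 h and at 46.6 and 41.8 at 24 h (-0.55, SE 0.15, adjusted p = 0.145). The summed FPKM of Eif3e, Eif3f, Eif3h, Eif3i, Eif3k and Eif3m divided by that of Eif3b, Eif3c, Eif3d and Eif3g was between 2.05 and 2.38 in 8 libraries and 4.34 and 3.94 in the 24 h libraries. These 10 subunits were grouped after their values were seen, so the ratio is a description. Over the 12 subunit genes other than Eif3j1 and Eif3j2, the highest was 2.57 to 3.18 times the lowest in those 8 libraries, and 5.76 and 5.42 times at 24 h. Eif3h was the highest in every library. Of the 8 subunits of the structural octamer (a, c, e, f, h, k, l and m), 6 were higher and 2 lower at 24 h than at 6 h, and of the other 6 genes 1 was higher and 5 lower.

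**Figure D3:**
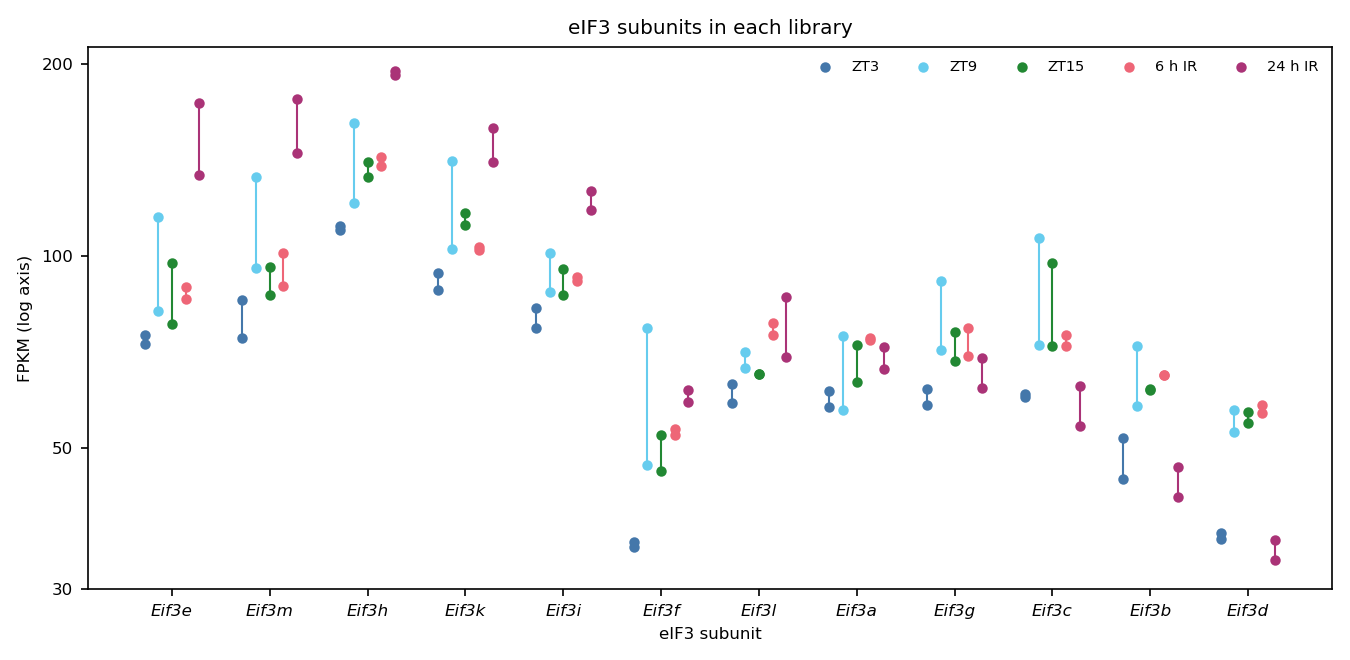
FPKM of 12 eIF3 subunit genes on a log axis, with the 2 libraries of each group joined by a line. At 24 h Eif3e, Eif3m, Eif3h and Eif3i lie above all other groups, whereas Eif3b overlaps the ZT3 values, Eif3d lies just below them, and both lie below those of 6 h.

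Among the eIF4 factors, Eif4b, which stimulates the helicase eIF4A, was higher at both times after irradiation. It was at 101 and 86.7 FPKM (ZT3), 98.0 and 113 (ZT9), 87.7 and 105 (ZT15), 149 and 151 (6 h), and 143 and 161 (24 h). All 4 irradiated libraries lay above all 6 controls. The difference was 0.51 at 6 h against ZT9 (SE 0.16, adjusted p = 0.299) and 0.69 at 24 h against ZT3 (SE 0.16, adjusted p = 0.113). Against the mean of the controls Eif4b rose at 24 h by 0.62 (adjusted p = 0.0437).

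The eIF4A helicase genes differed in opposite directions between the control times, but neither passed the test across them. File order also separates ZT3 from ZT9 and ZT15, so these differences cannot be assigned to time of day. Eif4a2 made up 58.0% to 76.2% of the FPKM of the pair. Eif4a1 was at 143 and 161 FPKM (ZT3), 189 and 174 (ZT9), 193 and 241 (ZT15), 157 and 164 (6 h), and 217 and 194 (24 h). Eif4a2 was at 454 and 418, 386 and 395, 351 and 334, 502 and 458, and 560 and 557 in the same order. From ZT3 to ZT15 the group means of Eif4a1 went up and those of Eif4a2 went down, with no overlap between ZT3 and ZT15 for either gene. Eif4a1 was 0.51 higher at ZT15 than at ZT3 (SE 0.16, adjusted p = 0.346).

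Eif4g3, a scaffold related to eIF4G1, was at 40.2 and 40.1 FPKM (ZT3), 19.9 and 23.5 (ZT9), 20.3 and 25.3 (ZT15), 26.1 and 20.5 (6 h), and 31.8 and 27.9 (24 h). Both ZT3 libraries lay above the other 8. It was 0.86 lower at ZT9 than at ZT3 (-0.86, SE 0.18, adjusted p = 0.126), and had the second smallest p of the factors across the control times (adjusted p = 0.224), after Eif3d (adjusted p = 0.207). Its share of the Eif4g1, Eif4g2 and Eif4g3 FPKM was 12% and 11.3% at ZT3 and between 4.94% and 8.83% elsewhere. Against ZT3 it stood at -0.42 at 24 h (SE 0.18, adjusted p = 0.279), and against ZT9 at 0.45, so the sign depends on the control time.

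The other eIF4 genes did not pass in any of the 4 tests. Eif4e, the cap-binding protein, was between 38.4 and 64.0 FPKM, and Eif4g1, the main scaffold, between 116 and 153. Eif4e2, a cap-binding relative that represses translation, was 0.24 higher at 6 h than at ZT9 (SE 0.16, adjusted p = 0.603) and stood at -0.13 at 24 h against ZT3 (SE 0.16, adjusted p = 0.712). Eif4g2, a relative of eIF4G1 that does not bind eIF4E, was between 177 and 243 FPKM, and Eif4h, a partner of eIF4A, between 65.2 and 92.3.

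Eif4ebp1 encodes 4E-BP1, which sequesters eIF4E until it is phosphorylated by mTOR, and lies at chr8:27260327-27275656. Its FPKM was 38.4 and 42.5 (ZT3), 153 and 67.6 (ZT9), 67.9 and 56.2 (ZT15), 59.0 and 50.5 (6 h), and 27.1 and 34.3 (24 h). The 24 h libraries were the lowest of the 10, and the ZT9 libraries differed from each other by more than 2-fold. At 6 h it was 0.89 below ZT9 (-0.89, SE 0.34, adjusted p = 0.376) and at 24 h 0.40 below ZT3 (-0.40, SE 0.34, adjusted p = 0.572). With ZT9 as the control for 24 h, Eif4ebp1 fell by 1.71 (adjusted p = 0.0401), but the call was lost when the libraries were scaled by the median of ratios (-1.98, adjusted p = 0.0515) and without ZT9 replicate 1, where the difference was -1.12. Its FPKM divided by that of Eif4e was 3.91 in ZT9 replicate 1, between 0.912 and 1.62 in 7 libraries, and 0.423 and 0.726 at 24 h. Eif4ebp2 stayed between 27.9 and 40.4 FPKM, and Eif4ebp3 was at most 1.14% of the 4E-BP FPKM.

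Of the 6 genes grouped under elongation by their symbols, 5 had their lowest group mean at ZT3. Eef1a1 was at 2275 and 2056 FPKM (ZT3), 3462 and 2542 (ZT9), 2722 and 2853 (ZT15), 2999 and 3006 (6 h), and 4018 and 3843 (24 h). Both ZT3 libraries were the lowest of the 10 and both 24 h libraries the highest. The difference at 24 h against ZT3 was 0.86 (SE 0.27, adjusted p = 0.179), and 0.02 at 6 h against ZT9 (95% interval -0.60 to 0.64). Eef1a2 was at most 0.0168% of the eEF1A FPKM. Of the same 6 genes, 5 had both 24 h libraries above both ZT3 libraries, as 46.4% of all genes had. The exception was Eef1e1, which was placed in this group by its symbol alone.

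Methyltransferases that modify eEF1A or eEF2 were expressed at 4.38 to 15.5 FPKM on average. Eef1akmt2, a lysine methyltransferase of eEF1A, was at 11.0 and 12.5 FPKM (ZT3), 9.57 and 6.75 (ZT9), 8.75 and 7.5 (ZT15), 8.16 and 7.16 (6 h), and 16.9 and 16.4 (24 h). Both 24 h libraries lay above the other 8. It was 1.03 higher at 24 h than at 6 h (SE 0.19, adjusted p = 0.118), and rose by 0.96 against ZT9 (adjusted p = 0.0374) and by 0.80 against the mean of the controls (adjusted p = 0.0375). Eef1akmt3 was at 5.52 and 5.49 at ZT9 and 4.44 and 3.56 at 6 h, a difference of -0.39 (SE 0.25, adjusted p = 0.579).

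No factor of the scanning and start codon group, which was filled by symbol, was among the 4 largest rises or falls at 24 h. The group includes Eif1ad, Eif5b and Eif6. Eif1, which guards the fidelity of start codon choice, was at 121 and 144 FPKM (ZT3), 253 and 166 (ZT9), 170 and 166 (ZT15), 153 and 119 (6 h), and 134 and 114 (24 h). Its 6 h libraries lay below both ZT9 libraries (-0.59, SE 0.23, adjusted p = 0.385), and against ZT3 the difference was 0.04. Eif5, which triggers GTP hydrolysis by eIF2 at the start codon, was at 126 and 141 at ZT3 and 89.1 and 105 at ZT9 (-0.46, SE 0.17, adjusted p = 0.252). Eif5a was at 217 and 209 at ZT3, 265 and 259 at ZT9, and 290 and 276 at ZT15, with no overlap between any of these groups, and between 218 and 236 after irradiation.

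As a list, most factors were higher at ZT9 and ZT15 than at ZT3. At ZT9 against ZT3, 48 were higher and 13 lower, while 48.4% of all genes were higher. The median log2 difference was 0.28 against -0.02 over all genes. Both ZT9 libraries lay above both ZT3 libraries for 35 factors and for 22.7% of all genes. At ZT15 against ZT3, 47 were higher, beside 57.9% of all genes, with a median of 0.24 against 0.07. Both libraries lay above both for 38 factors and for 25.5% of all genes. All 14 eIF3 genes were higher at ZT9 than at ZT3 and 13 at ZT15, but 0 of the 61 passed in either pair (0.0066% and 0.0198% of all genes passed). ZT9 replicate 1 stood above its partner by a median of 0.30 over the factors and 0.00 over all genes. Without it, 43 factors were higher and 18 lower at ZT9, with a median of 0.18, and 12 of the 14 eIF3 genes were higher. Shares of all genes without that library are not given here. The granular convoluted tubule sum was at least 37.3 times higher in each ZT3 library than in each ZT9 library, Y-linked transcripts and file order also separate ZT3 from ZT9, and their part in the difference was not tested beyond a term for Y-linked transcripts, with which the median was 0.29.

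After irradiation the numbers of higher and lower factors depended on how the libraries were scaled. At 6 h against ZT9, 30 factors were higher and 31 lower (median -0.03, all genes 0.12), and 10 had both libraries above both ZT9 libraries, while 30.8% of all genes did. Scaling the libraries by the median of ratios, which moved the median of all genes by -0.11, changed the split to 13 higher and 48 lower. At 24 h against ZT3, 45 factors (73.8%) were higher and 16 lower, beside 71.4% of all genes higher (median 0.23, all genes 0.21), and 35 had both libraries above both ZT3 libraries, beside 46.4% of all genes. Scaling moved the median of all genes by -0.22 there and the split to 29 higher and 32 lower. At 24 h against 6 h, 32 were higher and 29 lower, beside 58.9% of all genes higher (median 0.02, all genes 0.10), or 25 and 36 after scaling. The interaction, in which the 6 h change is subtracted from the 24 h change, passed for 0 factors, beside 0.0198% of all genes.

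The calls made against other controls depended in part on the same scaling. Against the mean of the controls, Eif2a was then 0.68 higher at 24 h (adjusted p = 0.0521), Eif2d 0.86 (adjusted p = 0.0848), Eif3e 0.58 (adjusted p = 0.152) and Eif4b 0.37 (adjusted p = 0.210), so these calls were lost, as were those of Eif3h, Eif3m and Eef1akmt2. Eif3d was lower by a larger margin (-0.71, adjusted p = 0.0262; 0.877% of all genes passed). It was also the 1 factor that passed against ZT9 (-0.93, adjusted p = 0.0228; 0.91% passed), where Eif2a (0.55, adjusted p = 0.103) and Eef1akmt2 (0.70, adjusted p = 0.111) no longer did. Eif2d remained called at 6 h after scaling, by 1.39 against the mean of the controls (adjusted p = 0.0222; 0.633% passed) and by 1.42 against ZT3 (adjusted p = 0.0498; 0.594% passed). Without scaling, each factor's call against another control (ZT3 at 6 h, ZT9 at 24 h or the mean of the controls) kept its direction but passed in only 2 to 8 of the 10 fits that left out 1 library, which were chosen after seeing the data. The 24 h calls were lost when either 24 h library was left out, and the 6 h calls when either 6 h library was.

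The factors took a larger share of each library at 24 h. Their summed FPKM was 0.697% and 0.660% of the total (ZT3), 0.764% and 0.782% (ZT9), 0.772% and 0.851% (ZT15), 0.803% and 0.898% (6 h), and 1.2% and 1.07% (24 h). The 24 h libraries were the highest and the ZT3 libraries the lowest, and Eef1a1 alone was 42.2% to 42.3% of the sum at 24 h. The total of 24 h replicate 1, 791786, held no Prol1, which was at 50123 FPKM in replicate 2. The secretoglobin Scgb1b27 made up 17.4% and 12.5% of the total (ZT3), 24.6% and 24.6% (ZT9), 21.6% and 12.2% (ZT15), 20.3% and 13.7% (6 h), and 8.21% and 12.8% (24 h). Whether the level of Scgb1b27 has a part in the share of the factors was not tested. Genes outside the factors were also higher at 24 h: 71.4% of all genes were higher than at ZT3. The median-of-ratios scaling factors were 1.14 and 1.13 at 24 h and at most 1.03 elsewhere. A larger share was therefore not shown to be particular to the factors.

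**Figure D4:**
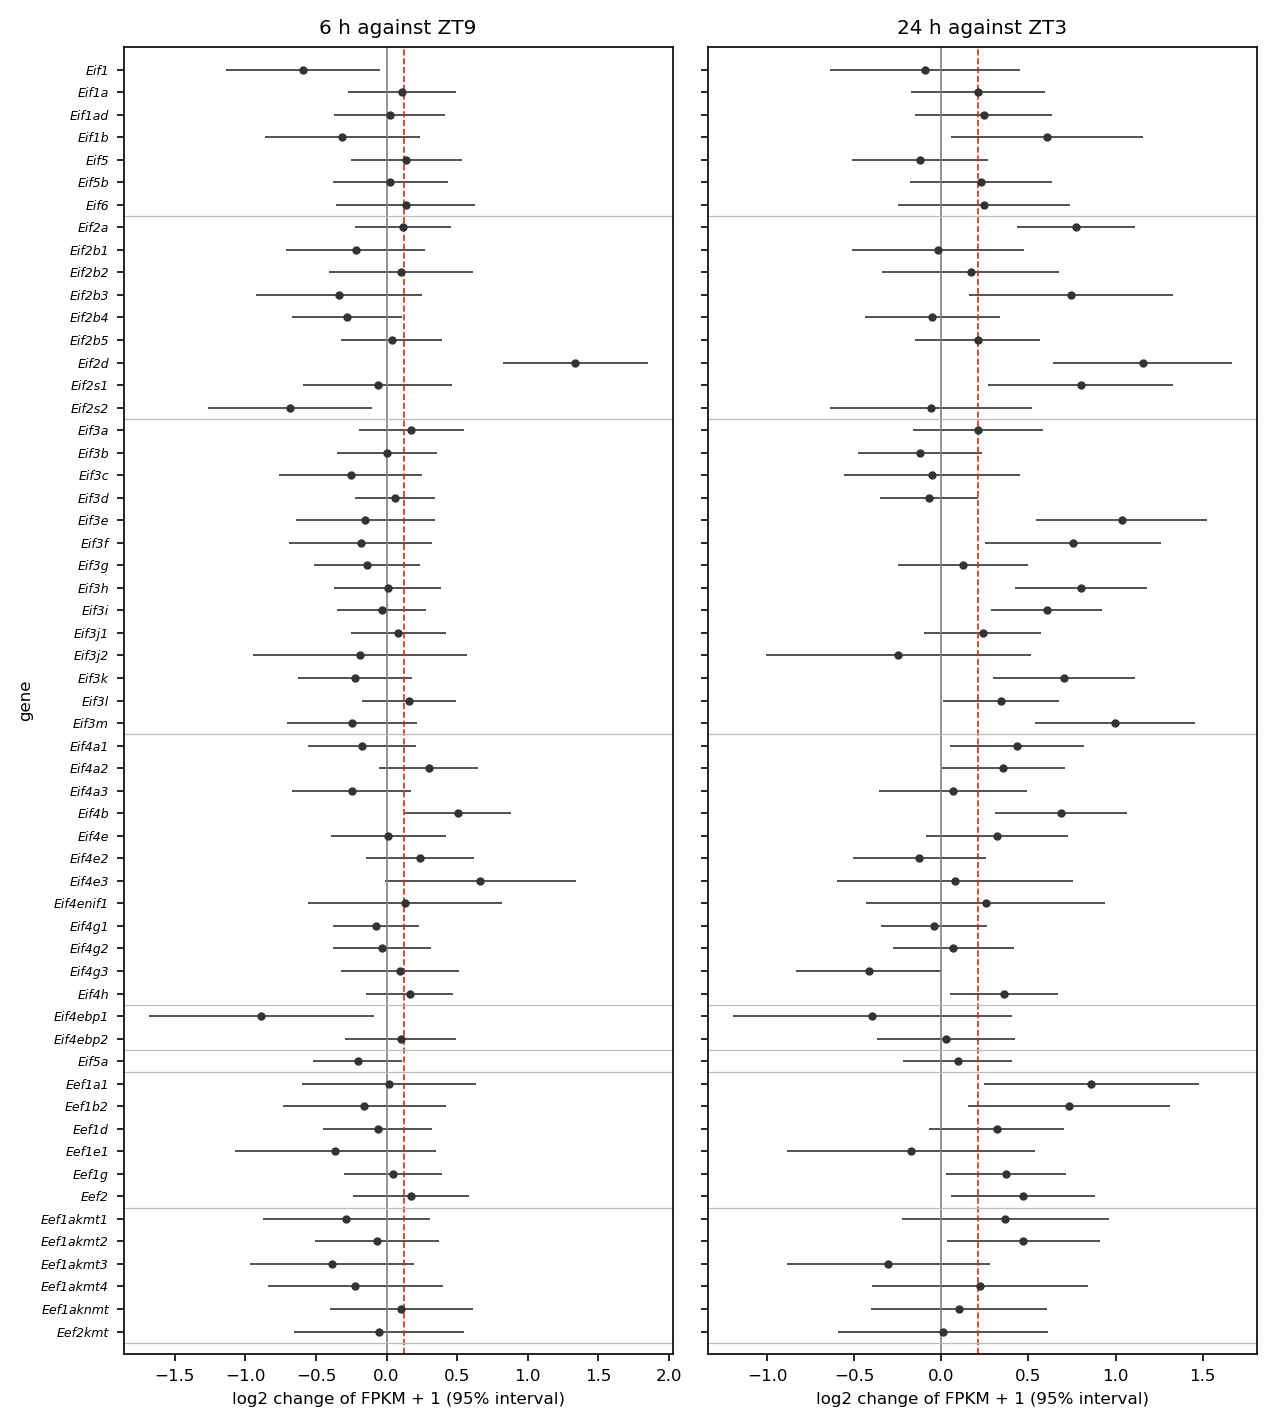
Log2 difference of FPKM + 1 with its 95% interval for 57 factors, without the 4 copies, at 6 h against ZT9 and at 24 h against ZT3; the grey line is 0 and the dashed red line is the median of all genes tested. Eif2d stands apart at 6 h, and at 24 h Eif2d, Eif3e and Eif3m have the largest differences.

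Of 30 other translation genes, including poly(A)-binding proteins, release factors, mTOR components and stress-response regulators, 29 were tested and 0 passed in the 4 tests, and 0 of the 8 genes left out by name passed. At 24 h against ZT3, 22 of the 29 were higher and 7 lower, with a median of 0.19, beside 71.4% of all genes higher and a median of 0.21. At 24 h against ZT9, 2 of the 29 passed, both lower, where 5.11% of all genes passed and 0.547% passed as lower. Atf4, a transcription factor translated when eIF2 is phosphorylated, fell by 1.13 (adjusted p = 0.0367) and by 0.82 against the mean of the controls (adjusted p = 0.0445; 0.501% of all genes passed as lower), with 150 and 92.1 FPKM at ZT9 and 54.0 and 52.3 at 24 h. Pabpc1, the main cytoplasmic poly(A)-binding protein, was 0.90 lower than at ZT9 (adjusted p = 0.0408), with 800 and 886 FPKM at ZT9 and 406 and 499 at 24 h. Its values were 538 and 469 at ZT3 and 476 and 465 at ZT15. Against ZT3 neither gene passed at 24 h: Pabpc1 stood at -0.16 (adjusted p = 0.681) and Atf4 at -0.45 (adjusted p = 0.326).

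Summits of the clock proteins were common at the start sites of these genes. Bmal1 drives transcription at E-boxes, Nr1d1 represses Bmal1, and Dbp is a clock output factor. A RefSeq start with its sequence was matched for 43 of the 61 factors and for 10657 of the genes tested. Bmal1 summits of both lists lay within 1000 bp of a start for 20 of the 43 (46.5%), while 24.1% of all genes had them. The counts were 9 for Nr1d1 (20.9%, all genes 10.9%) and 13 for Dbp (30.2%, all genes 24.5%).

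Those shares stand beside a difference in level: 93% of the 43 factors had a mean of at least 10 FPKM, against 46.7% of all genes with a start, and the part of this difference was not tested. The 2 lists of a target also differed in length, from 30977 and 19699 summits for Bmal1 to 9584 and 38310 for Nr1d1 and 49235 and 10324 for Dbp, so the shorter list set each count. The 9 factors with summits of all 3 targets in both lists were Eef1a1, Eef2kmt, Eif1, Eif2a, Eif2s1, Eif4a1, Eif4b, Eif5 and Eif5a, or 20.9% against 8.14% of all genes. Eif1b and Eif3l had no summit of any target.

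**Figure D5:**
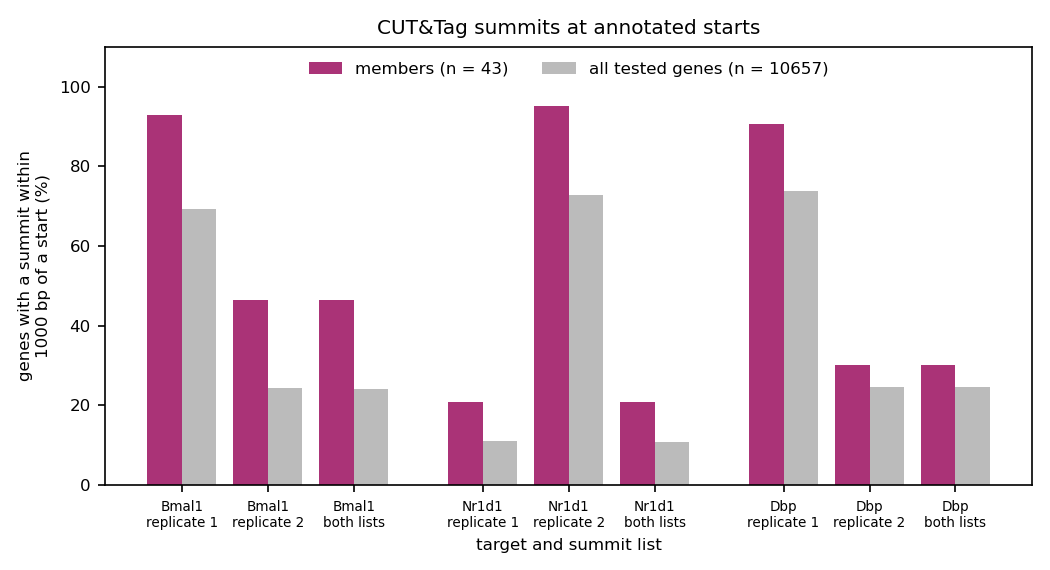
Percent of genes with a summit within 1000 bp of an annotated start, for each list and for both lists of a target, in 43 factors and in all 10657 genes with a start. The factors' bars are higher than those of all genes for every list, by the least for the shorter Dbp list.

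The E-box CACGTG was searched on both strands from 250 bases before to 50 after each annotated start. It was present for 12 of the 43 factors (27.9%) and for 11.5% of all genes with a start. A gene with several starts was counted if any of its windows held the motif. Eif3k, Eif4a1, Eif4g1, Eif4h and Eif5a had both the motif and Bmal1 summits in both lists (11.6%, all genes 5.99%). AGGTCA, a core sequence bound by nuclear receptors, was found for 3 factors (6.98%, all genes 15.3%), and the D-box TTATGTAA for 0 (all genes 0.685%). A match is a description of the letters in this window.

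Windows of 4 factors are given because they span the range of Bmal1 rank: Eif4a1 had Bmal1 summits near the top of both lists, Eif5a had the motif near its summits, Eif5 had a summit of high rank in 1 list and no motif, and Eif2d, with the smallest p at 6 h, had summits of low rank. They are the RefSeq sequences of build GRCm38.p6 (mm10), 5′ to 3′ on the strand of the gene, with the E-box in capitals. The windows are chr11:69672374-69672673 (minus strand) for Eif4a1, chr11:69921337-69921636 (minus strand) for Eif5a, chr12:111537851-111538150 (plus strand) for Eif5 and chr1:131152957-131153256 (plus strand) for Eif2d.
Eif4a1: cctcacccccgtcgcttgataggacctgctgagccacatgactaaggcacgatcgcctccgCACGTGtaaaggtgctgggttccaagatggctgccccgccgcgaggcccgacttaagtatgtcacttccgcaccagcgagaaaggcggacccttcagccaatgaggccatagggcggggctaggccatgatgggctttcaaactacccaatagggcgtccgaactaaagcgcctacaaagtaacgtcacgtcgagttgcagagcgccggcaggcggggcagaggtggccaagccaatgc
Eif5a: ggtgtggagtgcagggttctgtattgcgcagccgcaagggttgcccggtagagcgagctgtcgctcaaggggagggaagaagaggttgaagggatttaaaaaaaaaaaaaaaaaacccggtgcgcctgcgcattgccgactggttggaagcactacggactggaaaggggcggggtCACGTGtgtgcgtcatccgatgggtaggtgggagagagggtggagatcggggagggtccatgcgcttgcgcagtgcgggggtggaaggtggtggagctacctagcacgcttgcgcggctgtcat
Eif5: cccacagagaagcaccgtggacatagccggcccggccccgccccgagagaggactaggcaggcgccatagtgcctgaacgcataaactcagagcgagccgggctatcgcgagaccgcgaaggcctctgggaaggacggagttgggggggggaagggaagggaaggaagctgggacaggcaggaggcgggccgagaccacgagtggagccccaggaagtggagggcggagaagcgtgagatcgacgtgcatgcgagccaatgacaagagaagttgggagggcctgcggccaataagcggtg
Eif2d: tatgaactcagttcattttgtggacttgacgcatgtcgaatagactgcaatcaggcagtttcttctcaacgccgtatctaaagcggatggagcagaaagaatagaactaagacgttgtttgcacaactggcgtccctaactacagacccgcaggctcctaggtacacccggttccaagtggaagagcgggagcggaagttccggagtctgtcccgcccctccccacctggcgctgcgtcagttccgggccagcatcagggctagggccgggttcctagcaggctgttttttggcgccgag

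In Eif4a1 the E-box began at position -189 relative to the start, and the Bmal1 summits of both lists lay at -100, with ranks of 72 and 40 by deposited score within their lists. The end of the neighbouring gene Senp3 lay at -687 from the same start. Eif5a has 6 annotated starts, and the start nearest to a Bmal1 summit was used, so a short distance there follows from that choice. From this start the E-box of Eif5a began at -74 and the Bmal1 summits lay at -44 and -47, ranked 821 and 340. Eif5 had Bmal1 summits at -59 and -43, ranked 126 and 4174. In Eif2d the Bmal1 summits lay at 56 and 43, after the start, and ranked 28903 of 30977 and 18458 of 19699, near the bottom of their lists. The summits come from untreated glands and carry no time of day, so they cannot be set against the irradiated groups.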

How the data were processed

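The authors deposited FPKM per gene for 10 RNA libraries and 6 lists of CUT&Tag summits with a deposited score. Per the submitters' processing notes, the tools were HISAT2, SAMtools, Cufflinks and Bowtie2 and the build mm10, with no role given. Peak caller and score scale: not given in the sources used here, so scores only ranked summits within a list. Of 55398 entries per file, 107 repeated symbols were dropped. log2(FPKM + 1) of the 15161 genes at 1 FPKM or more in 2 libraries was fitted with limma 3.58.1 (R 4.3.3, trend, 1 mean per group, 5 residual degrees of freedom), with two-sided tests at a Benjamini-Hochberg adjusted p of 0.05 and fold changes that are understated for low genes. Exact tests of 2 against 2 libraries cannot go below 0.333. FPKM gives no counts, so no counting interval was computed. The fit was tested on simulated data. ZT9 served as control for 6 h and ZT3 for 24 h. Members and lists were chosen with earlier results of these data known. Named were the most abundant factor of each role, the 4 largest rises and falls at 6 h and 24 h without overlap and with at least 5 FPKM in the higher group, 4E-BP, eEF1A and eIF4A genes; others were chosen after their values were seen. Replicate numbers share only a number: rep 1 minus rep 2 correlated over 0.1 in 4 of 10 pairs of groups (-0.141 to 0.473). Summits within 1000 bp of RefSeq GRCm38.p6 starts were counted with Python 3.11.15, numpy 2.4.6 and pandas 2.3.3; figures used matplotlib 3.10.9.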

Additional observations from a re-analysis of the deposited data

How the results depend on the processing

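With the replicate block as a term, 0 factors passed in each of the 4 tests, as without it. With other controls, 1 factor passed at 6 h (against ZT3, or the mean of 3 control times), and at 24 h 4 passed against ZT9 (5.11% of all genes) and 8 against the mean (5.55%). A term for Amy1 gave 1 at 24 h (0.455% of all genes), leaving out each library in turn gave 0 to 6 there (6 without either ZT9 library, 1.56% of all genes), and no filter gave 1 at 24 h against 6 h (0.251%); the cause was not tested. The members' median at 6 h was -0.17 after scaling, 0.25 against ZT3 and -0.16 to 0.065 with a library left out; at 24 h it was -0.011 after scaling, 0.078 against ZT9, 0.088 against the mean and 0.23 to 0.26 with a library left out; at 24 h against 6 h it was -0.13 after scaling and -0.043 to 0.096 with a library left out. For ZT9 against ZT3 the range was 0.18 to 0.42, and for ZT15 against ZT3 0.24 to 0.33. Reversed signs were Eif4ebp1 (0.42) and Eif1 (0.036) at 6 h against ZT3, and Eif4g3 at 24 h against ZT9 (0.45) and the mean (0.14). With scaling and another control together, chosen after seeing the data, 1 factor passed in each of the 4 fits; the medians were 0.13 at 6 h against ZT3, and -0.20 and -0.15 at 24 h against ZT9 and the mean, and Eif4ebp1 (0.30) at 6 h against ZT3 and Eif4g3 (0.17) at 24 h against ZT9 reversed. Counting summits in at least 1 list gave 40, 41 and 39 of 43 factors for Bmal1, Nr1d1 and Dbp (93%, 95.3% and 90.7%). The shares of all genes were 69.5%, 72.9% and 73.8%. Single lists gave 20 to 40, 9 to 41 and 13 to 39 factors. The single-list shares of all genes were 24.4% to 69.2%, 11% to 72.8% and 24.5% to 73.8%. Leaving out ZT15 replicate 2 and the 6 h replicate 2 together, chosen after seeing the data, changed no count of calls. With 2 libraries a group and unknown depth, moderate differences could be missed.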
